A study of Mus musculus with 235 samples.

Results

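Rgs2, Dusp14, Jph1, Fam126a and Acss1 are the 5 genes described here, of 27998 genes in the count table. They were chosen by their response to dexamethasone, because each was called higher after the drug in at least 1 punched brain region and called lower in at least 1 other. "Called" means a Benjamini-Hochberg adjusted p under 0.05 over all genes tested in that region with edgeR's quasi-likelihood test. Since the responses chose the genes, the responses and their differences between regions are given as descriptions and are no independent evidence. The choice did not compare vehicle levels between regions, and these are tested below, but the same vehicle libraries were the controls of the contrasts that chose the genes. Vehicle levels and responses are therefore not independent.

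The samples came from 3 month old male C57Bl/6 mice, of which 15 received dexamethasone at 10 mg/kg and 15 received 0.9% saline as vehicle. Injections were intraperitoneal, and perfused brains were taken 4 h later. From each animal up to 8 regions were punched, which the labels call PFC, AMY, PVN, CER, dCA1, vCA1, dDG and vDG, and each punch gave 1 library. Groups held 15 libraries, except dexamethasone dCA1 with 13, dexamethasone PFC with 14, and vehicle PVN and vehicle vCA1 with 14 each. One sex, 1 dose and 1 time were studied, and the replicates are separate animals. A 3' end library kit with unique molecular identifiers was used, so a count is 1 tagged transcript end, and levels are compared between groups and not between genes. Levels are in CPM, counts scaled to the same library total with TMM factors.

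Dexamethasone is a synthetic agonist of the glucocorticoid receptor, a transcription factor that raises some genes and lowers others, depending on the cell type and on the other factors bound nearby. The 5 genes act in different places in a cell. RGS2 shortens signalling by Gq-coupled receptors by speeding up GTP hydrolysis on the G protein. DUSP14 is an atypical dual-specificity phosphatase that acts on MAP kinase pathways. Junctophilin 1, from Jph1, holds the endoplasmic reticulum close to the plasma membrane and is best known from skeletal muscle. Hyccin, from Fam126a, is part of the complex that anchors PI4-kinase at the plasma membrane, and its loss in people impairs myelination. ACSS1 makes acetyl-CoA from acetate in mitochondria.

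All 5 genes lie on the minus strand of GRCm38. Rgs2 (ENSMUSG00000026360) spans chr1:143999338-144004161 and Jph1 (ENSMUSG00000042686) chr1:16964560-17097889. Acss1 (ENSMUSG00000027452) spans chr2:150618105-150668500, Fam126a (ENSMUSG00000028995) chr5:23915276-24030690, and Dusp14 (ENSMUSG00000018648) chr11:84048041-84069261. Counts refer to the exons of each gene. Of the exon bases of Jph1, 34 (0.68%) overlap the antisense gene Gm28376, which had 0 counts, and 113 of the exon bases of Acss1 (2.74%) overlap E130215H24Rik on the opposite strand. Whether the counting used strand is not given in the sources used here.

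The RefSeq promoter table (GRCm38.p6), with 250 bases before and 50 bases after each start, held 4 of the 5 genes, all but Jph1. None of these 4 windows held the palindromic glucocorticoid response element (AGAACA, 3 free bases, TGTTCT), its arm AGAACA, the AP-1 site TGANTCA or the cAMP response element TGACGTCA on either strand. Of 32817 promoters, 0.00914%, 19.0%, 7.81% and 1.79% held these motifs, in that order. AGAACA also lies within the first motif. The shorter motif TGACG, which lies within TGACGTCA and was searched after the sequences had been seen, was held by 20.8% of the promoters. It occurred in the Rgs2 window at 185 and 67 bases before the start, on opposite strands, and in none of the other 3 windows. The Rgs2 stretch upstream of its first exon is printed because it alone held such a match. It covers chr1:144004162-144004399 on the minus strand, 238 bases, with the TGACG matches in capitals.
Rgs2: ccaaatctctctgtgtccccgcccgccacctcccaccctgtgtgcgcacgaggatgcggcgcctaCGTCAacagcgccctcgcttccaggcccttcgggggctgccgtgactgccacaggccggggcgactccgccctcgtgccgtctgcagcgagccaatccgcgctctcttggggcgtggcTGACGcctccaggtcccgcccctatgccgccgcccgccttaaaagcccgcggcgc

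The 4 windows were rich in G and C. Their GC content was 70.0% for Rgs2, 64.3% for Acss1, 73.3% for Fam126a and 69.7% for Dusp14, against a median of 52.7% over all promoters. They held 33, 23, 44 and 37 CpG dinucleotides in the same order, against a median of 7. These are properties of the sequence, and no binding was measured.

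Library totals ran from 268538 to 1451422 counts (median 742957), and the mean RNA integrity number (RIN) of the groups from 5.69 to 7.81. Every one of the 5 genes had counts in every library, from 1 to 279. The labelled regions were compared with defining markers. In the 30 libraries labelled CER, the cerebellar genes Gabra6 and Pcp2 gave 11 and 10 counts in all, so both were nearly absent. The other listed cerebellar genes, Cbln3, Cbln1 and Calb1, gave 60, 226 and 872 counts there. Cbln1 and Calb1 averaged 10.9 and 41.1 CPM in CER, and 62.3 and 217.1 CPM in PVN. Gabra6, Cbln3 and Pcp2 together reached 50 CPM or more in 6 vDG libraries (3 per arm, up to 1020 CPM) and in 1 vehicle vCA1 library (819.5 CPM). Prox1, a gene of dentate granule cells, averaged 467.5 CPM in dCA1 and 453 CPM in dDG. The names of the regions are therefore used as labels only. Microglial marker sums changed by -0.84 to -1.05 and endothelial ones by -0.42 to -0.61 (log2) after dexamethasone in the 8 regions. In bulk punches, fewer cells of a type and less RNA per cell cannot be told apart.

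PFC held the most calls among the 5 genes. There, Jph1, Fam126a and Acss1 were called higher, where 3.86% of all genes tested were, and Dusp14 was called lower, where 2.28% were. In CER none of the 5 was called higher (3.9% of all genes) and 2 were called lower (2.28%), namely Jph1 and Fam126a. In PVN, Rgs2 was called higher (3.57% of all genes) and Acss1 lower (2.06%). In vCA1, Jph1 and Dusp14 were called higher (3.41%) and Rgs2 lower (2.04%). In dCA1 none was called higher (2.57%) and 1, Rgs2, lower (2.11%). In dDG 1, Dusp14, was called higher (2.33%) and none lower (1.37%). None of the 5 was called in AMY (higher 3.54%, lower 2.08%) or in vDG (higher 2.64%, lower 1.29%). Nothing is read from these counts against the background, since these contrasts chose the genes.

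Of 7924 genes tested in all 8 regions, 6 (0.0757%) were called in opposite directions in different regions. With the replicate number as a block, which libraries of both arms share, 19 genes were, all 5 described here among them. The sixth gene of the reported fit is Smad3, a mediator of TGF-beta signalling, which was higher in vCA1 (log2 fold change 0.45) and lower in dCA1 (-0.42). Ranked by the weaker of each gene's best calls in the 2 directions, Jph1 lay farthest inside the threshold (adjusted p 0.000262), followed by Dusp14 (0.00448), Rgs2 (0.00892), Smad3 (0.0175), Fam126a (0.0464) and Acss1 (0.0473). The nearest genes outside were Bcl11a (0.0507), Prox1 (0.0522), Dock10 (0.0577), Iffo2 (0.062) and Them4 (0.0628). Fam126a and Acss1 therefore lay about as close to the threshold as the genes just outside it.

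**Figure D1:**
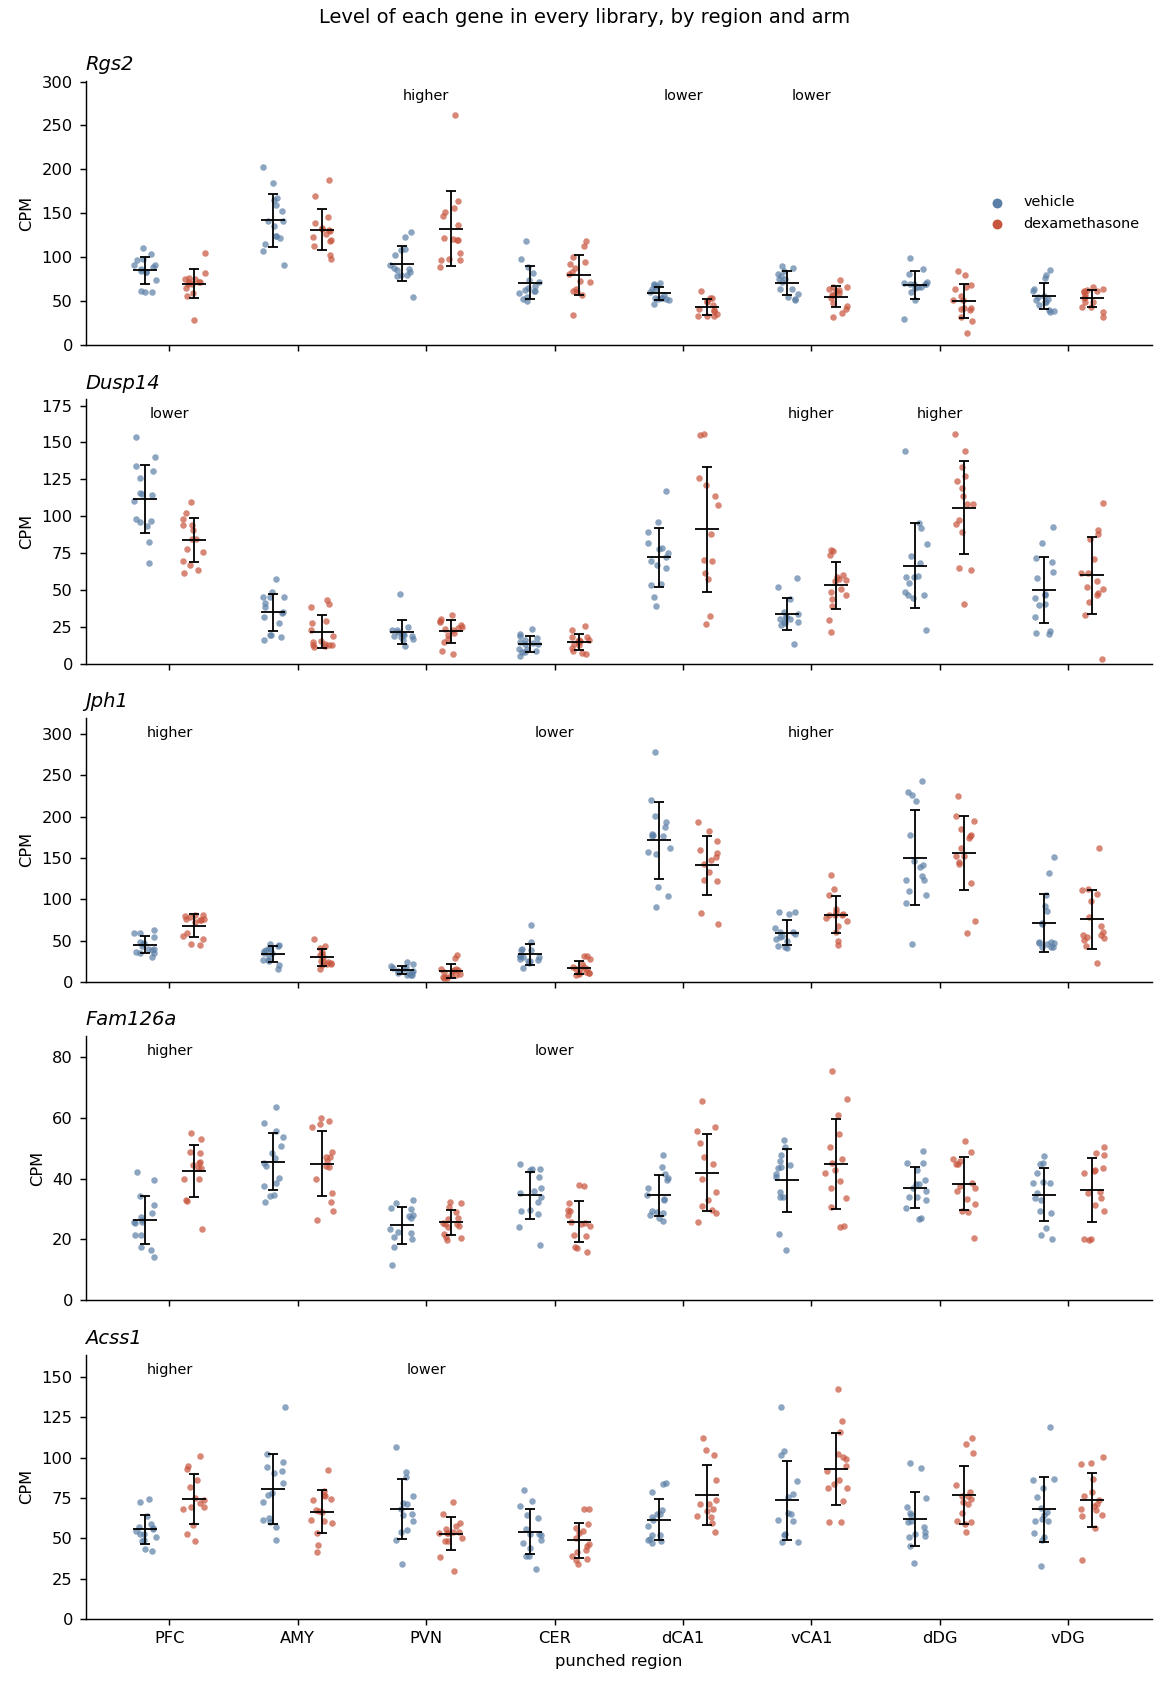
CPM of each gene (y axis, 1 panel per gene) in every library of the 8 regions (x axis), vehicle in blue and dexamethasone in red. Each point is 1 library, black lines give the mean ± 1 SD, and "higher" or "lower" marks the 13 called responses. The arms overlap in every region, and the direction of the shift differs between regions within each panel.

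Rgs2, the brake on Gq signalling, rose in PVN and fell in dCA1 and vCA1. In PVN the vehicle libraries lay between 55.0 and 128.3 CPM (median 87.5) and the dexamethasone libraries between 89.0 and 261.4 CPM (median 121.3). All 15 dexamethasone libraries were above the vehicle median, and 6 were above the highest vehicle library. The mean went from 92.8 ± 19.6 (SD, n = 14) to 132.4 ± 42.7 CPM (SD, n = 15), a log2 fold change of 0.51 ± 0.12 (SE) with an edgeR adjusted p of 0.00322. The highest PVN library after dexamethasone stood apart from the rest, and the difference of mean log2 levels stayed between 0.41 and 0.52 when any 1 library was left out. The summed paraventricular peptide genes Oxt, Avp, Crh and Trh, which mark the nucleus, differed widely among PVN libraries, from 17.8 to 2108 CPM in vehicle and from 4.93 to 2855 CPM after dexamethasone. Their medians were 234 and 861.2 CPM, and their part in the Rgs2 difference was not tested.

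In dCA1, Rgs2 lay between 47.2 and 70.9 CPM in vehicle (median 57.3) and between 32.9 and 61.2 CPM after dexamethasone (median 41.4). Of 13 dexamethasone libraries, 8 were below the lowest vehicle library. The log2 fold change was -0.42 ± 0.10 (SE), with an edgeR adjusted p of 0.00892. In vCA1 the range was 51.0 to 89.9 CPM in vehicle (median 73.4) and 31.8 to 73.7 CPM after dexamethasone (median 57.4). There 5 of 15 dexamethasone libraries were below the lowest vehicle library, and the log2 fold change was -0.36 ± 0.11 (SE; edgeR adjusted p 0.0475, or 0.0883 with the replicate block and 0.343 with the dentate level described below as a covariate). The dDG difference, -0.45 ± 0.16 (SE), was not called (edgeR adjusted p 0.128), but was with the block (-0.48, adjusted p 0.0113). In CPM, Rgs2 gained 39.6 ± 12.2 (SE) in PVN, and fell by 15.1 ± 3.25 in dCA1 and by 15.8 ± 4.68 in vCA1.

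Dusp14, the MAP kinase pathway phosphatase, fell in PFC and rose in dDG and vCA1. In PFC the vehicle libraries ran from 68.5 to 153.6 CPM (median 114.4) and the dexamethasone libraries from 61.6 to 109.8 CPM (median 84.7). All 14 dexamethasone libraries were below the vehicle median, and 3 were below the vehicle minimum. The log2 fold change was -0.41 ± 0.10 (SE), with an edgeR adjusted p of 0.00448. In dDG it ran from 22.7 to 144.4 CPM in vehicle (median 58.7) and from 40.2 to 155.8 CPM after dexamethasone (median 108.3). There the arms overlapped over most of the range, with 14 of 15 dexamethasone libraries above the vehicle median and 2 above the vehicle maximum. The log2 fold change was 0.66 ± 0.17 (SE; edgeR adjusted p 0.0162). In the same dDG libraries 0 of 5 choroid plexus markers were higher after dexamethasone. Their sum ran from 45.5 to 11770 CPM in vehicle (median 1312) and from 48.7 to 13520 CPM after dexamethasone (median 287.4), a log2 difference of -1.23, and their part was not tested. The oligodendrocyte (-0.15, 0 of 6 higher) and astrocyte marker sums (-0.14, 1 of 6 higher) were lower there too. The CA1 (0.22, 3 of 3 higher) and cerebellar sums (0.32, 5 of 5 higher) were higher, and their part was not tested either.

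In vCA1, Dusp14 ran from 13.5 to 58.0 CPM in vehicle (median 30.7) and from 21.5 to 77.2 CPM after dexamethasone (median 56.2). Of 15 dexamethasone libraries, 5 were above the highest vehicle library, and the log2 fold change was 0.67 ± 0.16 (SE; edgeR adjusted p 0.00377). With the dentate level described below as a covariate it was 0.38 (adjusted p 0.311), and all 7 dentate markers were higher in these libraries. The same gene gave the largest uncalled difference among the 5 genes, in AMY, where 8 of 15 dexamethasone libraries were below the lowest vehicle library. Its log2 fold change there was -0.61 ± 0.21 (SE), with an edgeR adjusted p of 0.0891, or 0.027 with the replicate block. In dCA1 (0.34 ± 0.18) and vDG (0.24 ± 0.21) Dusp14 was not called. Within plates each of these differences was higher in 2 plates and lower in 2. In vDG 1 dexamethasone library held 1 Dusp14 count (3.35 CPM). The vDG difference of mean log2 levels was 0.17, and between 0.085 and 0.42 when any 1 library was left out. In CPM it gained 39.4 ± 11.0 (SE) in dDG and 19.4 ± 5.09 in vCA1, and fell by 27.9 ± 7.17 in PFC.

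**Figure D2:**
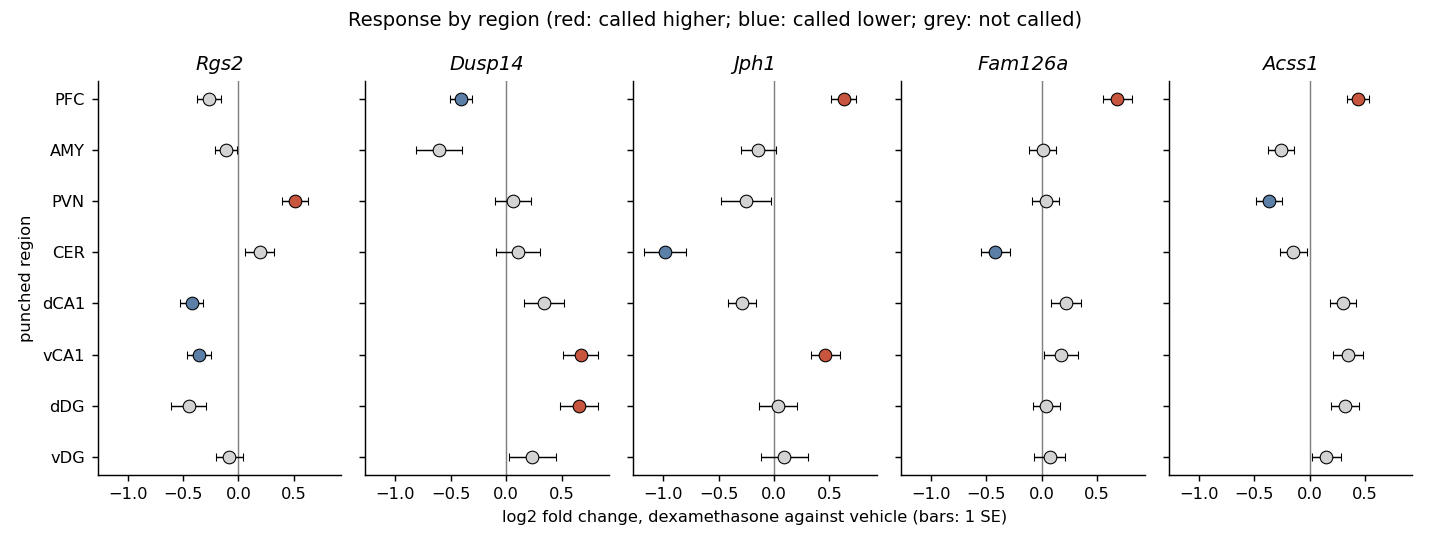
Log2 fold change of dexamethasone against vehicle (x axis, points, with bars of 1 SE) for the 8 regions (y axis), 1 panel per gene. Each gene has at least 1 called rise (red) and 1 called fall (blue), and the largest absolute value is Jph1 in CER at -0.98.

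Jph1, which tethers the endoplasmic reticulum to the plasma membrane, rose in PFC and vCA1 and fell in CER. In PFC it ran from 29.9 to 63.0 CPM in vehicle (median 42.9) and from 44.6 to 81.2 CPM after dexamethasone (median 75.0). All 14 dexamethasone libraries were above the vehicle median and 9 were above the vehicle maximum. The mean went from 44.9 ± 10.1 (SD, n = 15) to 68 ± 13.6 CPM (SD, n = 14), a log2 fold change of 0.63 ± 0.11 (SE; edgeR adjusted p 0.000104). In CER it ran from 16.6 to 68.4 CPM in vehicle (median 29.7) and from 8.78 to 31.9 CPM after dexamethasone (median 15.6). There 9 of 15 dexamethasone libraries were below the lowest vehicle library, and the log2 fold change was -0.98 ± 0.19 (SE; edgeR adjusted p 0.000262). The CER mean changed by -48.6%.

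In vCA1, Jph1 ran from 40.6 to 84.6 CPM in vehicle (median 56.8) and from 45.0 to 129.6 CPM after dexamethasone (median 80.7). Of 15 dexamethasone libraries, 5 were above the vehicle maximum, and the log2 fold change was 0.46 ± 0.13 (SE; edgeR adjusted p 0.0233, or 0.0547 with the replicate block). With the dentate level as a covariate, described below, it was 0.26 (adjusted p 0.585). The largest change in CPM was in a region where Jph1 was not called: in dCA1 the mean fell by 30.3 ± 15.6 CPM (SE), from 171 to 141, with an edgeR adjusted p of 0.281. With the replicate block it was called (log2 fold change -0.34, adjusted p 0.0269), and with the dentate level described below as a covariate it was -0.11 (adjusted p 0.698). The called changes were a gain of 23.1 ± 4.48 CPM in PFC, a gain of 21.8 ± 7.00 in vCA1 and a fall by 16.3 ± 3.76 in CER. The summed dentate markers were also lower in CER after dexamethasone. Of 7 dentate granule cell markers 1 was higher after dexamethasone in CER, and their summed level ran from 195.2 to 359.4 CPM in vehicle and from 125.9 to 244.8 CPM after dexamethasone. The log2 difference of that sum was -0.49. Prox1 averaged 95.3 CPM over the CER libraries of both arms, a large part of that sum, and alone changed by -1.04. The sum therefore depends largely on Prox1, and the part of these markers in the CER result was not tested.

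Fam126a, the PI4-kinase complex subunit, rose in PFC and fell in CER, the same regions and directions as Jph1. In PFC it ran from 14.4 to 42.1 CPM in vehicle (median 25.7) and from 23.3 to 55.0 CPM after dexamethasone (median 44.0). There 9 of 14 dexamethasone libraries were above the vehicle maximum, and the log2 fold change was 0.68 ± 0.13 (SE; edgeR adjusted p 0.00035). In CER it ran from 18.1 to 44.7 CPM in vehicle (median 35.1) and from 16.0 to 37.8 CPM after dexamethasone (median 25.5). There 3 of 15 were below the vehicle minimum, and the log2 fold change was -0.42 ± 0.13 (SE; edgeR adjusted p 0.0464). The mean gained 16.0 ± 3.05 CPM (SE) in PFC and fell by 8.63 ± 2.64 CPM in CER. The summed oligodendrocyte markers, given because hyccin is needed for myelin, differed by 0.06 (log2) in PFC and by 0.008 in CER. In the same CER libraries the dentate marker sum, which depends largely on Prox1, differed by -0.49, as given for Jph1. The sum of the 4 oligodendrocyte precursor markers differed by 0.27 (2 of 4 higher). Their part in the Fam126a result was not tested. In the other 6 regions Fam126a was not called, with log2 fold changes between 0.007 (AMY) and 0.22 (dCA1).

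Acss1, the mitochondrial acetyl-CoA synthetase, rose in PFC and fell in PVN. In PFC it ran from 42.1 to 74.6 CPM in vehicle (median 54.5) and from 48.2 to 101 CPM after dexamethasone (median 72.7). There 6 of 14 dexamethasone libraries were above the vehicle maximum, and the log2 fold change was 0.44 ± 0.10 (SE; edgeR adjusted p 0.00353). In PVN it ran from 34.1 to 106.7 CPM in vehicle (median 66.3) and from 29.5 to 72.5 CPM after dexamethasone (median 53.5). There 14 of 15 dexamethasone libraries were below the vehicle median but 1 was below the vehicle minimum, and the log2 fold change was -0.37 ± 0.12 (SE; edgeR adjusted p 0.0473). The paraventricular peptide sums given for Rgs2 are from these same PVN libraries (log2 difference 0.53, 3 of 4 higher), and their part was not tested here either. In CPM the gain in PFC was 19.0 ± 4.82 (SE), and the PVN level fell by 15.3 ± 5.60. None of the hippocampal punches was called, with log2 fold changes of 0.15 in vDG, 0.30 in dCA1, 0.32 in dDG and 0.34 in vCA1.

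Libraries of vCA1 differed between the arms in dentate markers. All 7 dentate markers were higher after dexamethasone there, where their summed level ran from 121 to 343.7 CPM in vehicle and from 131.6 to 856.2 CPM after dexamethasone. A dentate level, the mean log2(CPM + 1) of Dsp, Stxbp6, Lct, Tdo2, Plk5 and Npnt, was 3.29 ± 0.79 (SD, n = 14) in vehicle vCA1 and 4.21 ± 0.76 (SD, n = 15) after dexamethasone. With that level as a covariate none of the 3 vCA1 calls was made, as given above for Jph1, Dusp14 and Rgs2 (-0.29). The level was measured after treatment and differed between the arms, so the covariate also takes up part of the treatment contrast. Punch composition and an effect of the drug on these markers cannot be told apart here. In dCA1 the dentate level was lower after dexamethasone, 5.87 ± 0.89 (SD, n = 13) against 6.29 ± 0.54 (SD, n = 15), and the same covariate gave Dusp14 a called rise there (0.60, edgeR adjusted p 0.000102). Rgs2 in dCA1 and Dusp14 in dDG were called with the covariate as well. The oligodendrocyte sum was also lower in vCA1 after dexamethasone (log2 difference -0.36, 0 of 6 markers higher), as was the choroid plexus sum (-0.69, 1 of 5 higher), and their part was not tested.

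**Figure D3:**
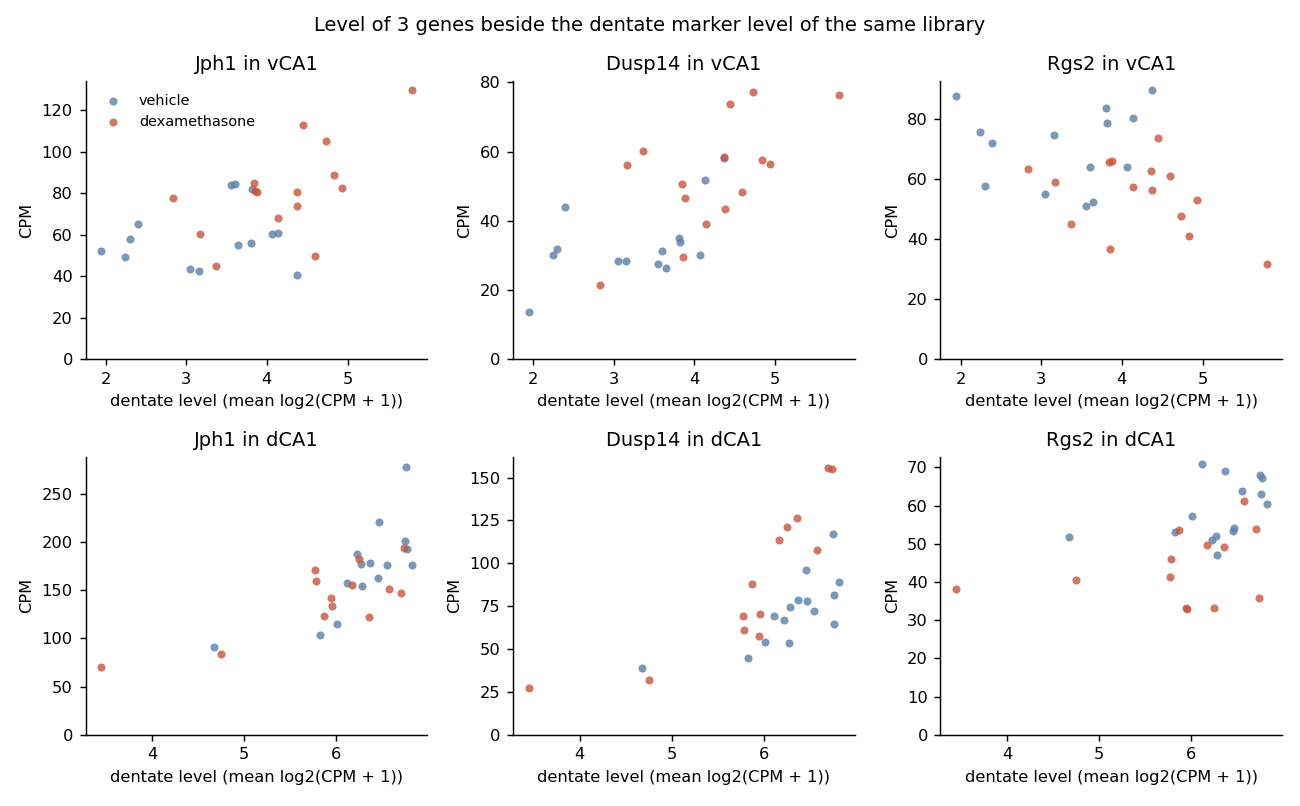
CPM of Jph1, Dusp14 and Rgs2 (y axes) in each vCA1 and dCA1 library against the dentate level of the same library (x axes, mean log2(CPM + 1) of 6 dentate genes), vehicle in blue and dexamethasone in red. In vCA1 the dexamethasone libraries sit farther right (mean 4.21 against 3.29), and in dCA1 farther left (5.87 against 6.29).

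Some of the 13 calls depended on how the counts were handled. Rgs2 in vCA1 was called in 6 of 12 alternatives, and the adjusted p was 0.133 without the 2 vCA1 libraries of RIN under 4. Without those libraries Acss1 was called in vCA1 (0.44, edgeR adjusted p 0.0379). Jph1 in vCA1 was called in 9 of 12 alternatives and Fam126a in CER in 7 of 10, where the adjusted p reached 0.0885 without a filter on low counts. Acss1 in PVN was called in 10 of 11. Its adjusted p was 0.12 with limma on the authors' log2 variance-stabilised values, on which changes are compressed. Dusp14 in vCA1 lost its call only with the dentate covariate. The other 8 calls were made in every alternative in which the gene was tested, and no called response changed direction. Of these 8, Jph1 in CER, Fam126a in PFC and Dusp14 in dDG had libraries under 10 counts (lowest 5, 9 and 8). They were therefore not tested where at least 10 counts were required in every library. The 3 vCA1 calls were also made without the 1 vCA1 library that held cerebellar markers.

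**Figure D4:**
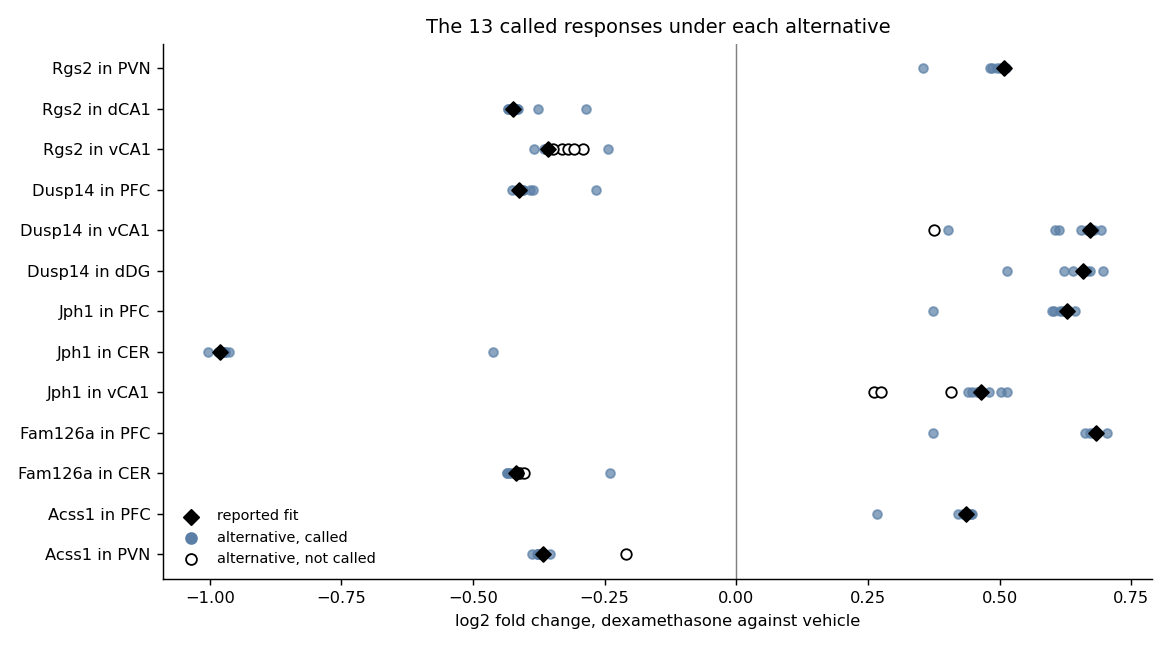
Log2 fold change (x axis) of the 13 called responses (y axis) in the reported fit (black diamonds) and in each alternative, filled where called and open where not. Of 143 alternative values 129 were called and 14 were not, and none crosses 0.

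The differences were also looked at within batches, which the labels give as 4 plates and 5 dates of punching. One date, on which 1 vehicle animal was punched, was left out, so each response has 4 plates and 4 dates. For the 13 called responses, the mean log2 level moved in the reported direction in 52 of 52 combinations of response and plate and in 49 of 52 combinations of response and date. The 3 exceptions were 1 date each for Jph1 in CER (0.21), Acss1 in PVN (0.08) and Dusp14 in vCA1 (-0.07). The responses were called in these same libraries, so the shared direction was largely fixed by the choice. It is no independent evidence that the responses hold across batches. RIN differed between the arms by -0.42 (AMY) to 0.19 (CER).

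Over all 8 regions, 129 of 11053 genes (1.17%) passed the region-by-treatment interaction in edgeR. The 5 genes ranked 19 (Rgs2), 24 (Jph1), 27 (Dusp14), 34 (Acss1) and 60 (Fam126a) by p. This contrast uses the same libraries and groups as the choice of the genes, so the ranks describe that choice. That fit treats the punches of an animal as independent. With the animal as a block 140 genes passed, and the adjusted p of the 5 genes ran from 2.14e-05 (Jph1) to 0.00485 (Fam126a). The profiles over the 8 regions were not alike. The Pearson correlation of the 8 log2 fold changes was 0.85 between Jph1 and Fam126a and -0.85 between Rgs2 and Acss1, while Jph1 and Dusp14 gave 0.02. Within a region, these values share all their libraries.

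In the vehicle libraries alone, with the animal as a block, the level of each of the 5 genes differed among regions, as did 73.3% of all genes tested. The F statistic was 116 for Jph1 (edgeR adjusted p 4.44e-45), 73.3 for Dusp14 (1.37e-36), 34.1 for Rgs2 (1.07e-23), 9.36 for Fam126a (1.48e-08) and 4.91 for Acss1 (0.000155). By p, Jph1 ranked 25 and Dusp14 140 of 10451 genes, while Acss1 ranked 5058. Between 2 regions, 31.4% of all tests over the 28 pairs passed.

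**Figure D5:**
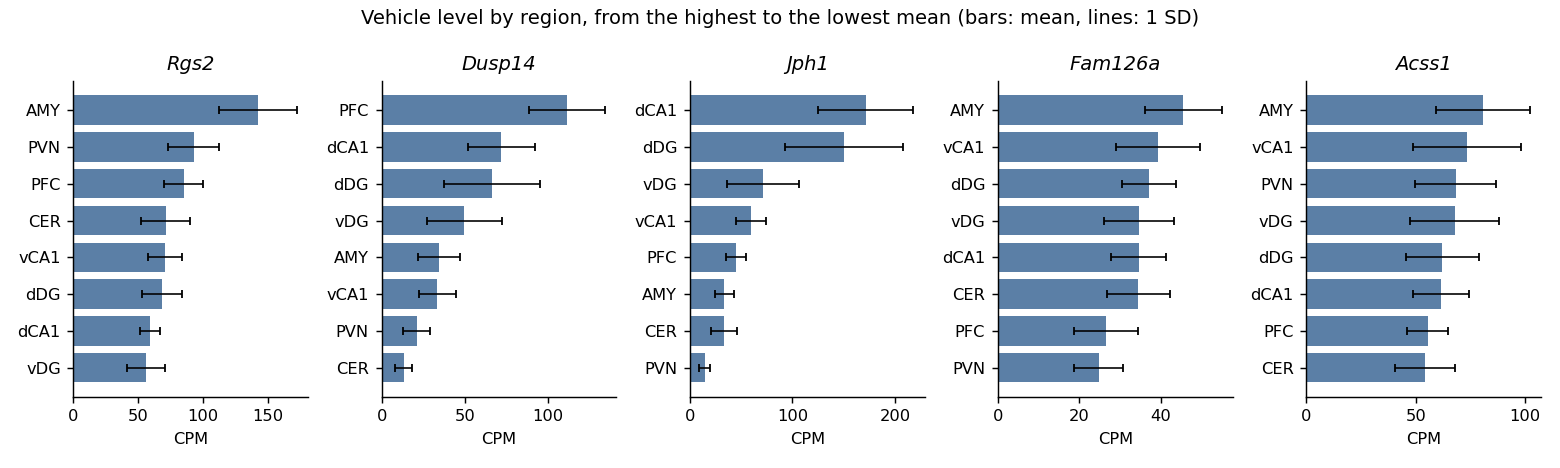
Mean vehicle CPM (x axes, bars, with lines of 1 SD) by region, sorted within each gene from high to low. Jph1 runs from 171 CPM in dCA1 to 14.4 CPM in PVN, while Acss1 runs from 80.6 CPM in AMY to 54.1 CPM in CER.

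Jph1 had the widest spread between regions. It was highest in dCA1 (171 ± 46.5 CPM, SD, n = 15) and dDG (150.2 ± 57.3, SD, n = 15). The difference between these regions did not pass (log2 0.21 ± 0.13, SE; edgeR adjusted p 0.547). A step of 1.08 ± 0.14 (log2, SE) separated dDG from vDG (71.3 CPM), and vCA1 (59.5), PFC (44.9), AMY (33.8) and CER (33.5) followed. PVN was lowest, at 14.4 ± 5.11 CPM (SD, n = 14), 12.2 times below dCA1 (log2 difference 3.61 ± 0.17, edgeR adjusted p 1.33e-36). Of the 7 neighbouring pairs, 3 passed.

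Dusp14 was highest in PFC, at 112 ± 22.9 CPM (SD, n = 15). dCA1 (72 CPM), dDG (66.3) and vDG (49.8) came next, then AMY (34.8), vCA1 (33.6), PVN (21.3) and CER (13.3). PFC exceeded CER 8.27 times (log2 difference 3.05 ± 0.17, edgeR adjusted p 1.95e-30), and 4 of 7 neighbouring pairs passed, the first being PFC against dCA1 (0.63 ± 0.14, adjusted p 9.44e-05).

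Rgs2 was highest in AMY (142 ± 30.3 CPM, SD, n = 15), and then in PVN (92.8), PFC (85.1), CER (71.1), vCA1 (70.6), dDG (68.4), dCA1 (58.8) and vDG (56.1). AMY exceeded PVN by 0.59 ± 0.10 (log2, SE; edgeR adjusted p 2.86e-06) and vDG 2.51 times. From CER down to vDG no neighbouring pair passed. For Fam126a the order ran from AMY (45.5 CPM) through vCA1 (39.4), dDG (37.0), vDG (34.7), dCA1 (34.6), CER (34.5) and PFC (26.5) to PVN (24.7), and 1 neighbouring pair passed, CER against PFC (0.40 ± 0.13, edgeR adjusted p 0.00673). For Acss1 no neighbouring pair passed, and its extremes, AMY and CER, differed 1.46 times (edgeR adjusted p 0.000238).

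The genes with the most similar response profiles, by Pearson correlation of 8 log2 fold changes over 7923 genes, were Celf2 (0.97), Lmo7 (0.97) and Psme4 (0.97) for Jph1, and Agfg2 (0.99), Pmepa1 (0.96) and Sart3 (0.95) for Rgs2. For Acss1 they were B230219D22Rik (0.97), Nktr (0.96) and Car2 (0.95), for Fam126a Plce1 (0.98), Hnrnpul2 (0.97) and Gria1 (0.96), and for Dusp14 Atp6v1d (0.96), Lrig2 (0.95) and Emc8 (0.94). A similar profile did not mean opposite directions. Agfg2 had positive values in every region (0.35 to 0.86, called in 6) and Car2, a carbonic anhydrase, had negative ones (-0.78 to -0.35, called in 8). Celf2 ran from -0.23 to 0.06 and was called in none. With 8 points from shared libraries these values are descriptions.

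Within groups, the deviations of all libraries from their group means gave another set of neighbours. Dusp14 was most correlated with Ncald (Pearson r 0.63) and Synpr (0.63). Jph1 was most correlated with Nedd4l (0.61), Erc2 (0.61) and Wipf3 (0.58), Acss1 with Gpm6b (0.53), Ndrg2 (0.51) and Epb41l2 (0.50), Rgs2 with Sod1 (0.44), Rtn1 (0.43) and Hspa5 (0.42), and Fam126a with Adcy5 (0.35), Inafm2 (0.35) and Arpc5 (0.34). Among the 5 genes, Jph1 and Dusp14 shared the most deviation (0.42), while Jph1 and Fam126a gave -0.04, unlike their profiles over regions. These libraries share animals and differ in punch composition.

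Relatives and partners of the 5 genes were taken from 7 lists by family or complex. None of their genes was called in opposite directions, against 0.0757% of all genes, a share too small for a list of this size to be read against. Over the 8 regions, 5.17% of 71817 tests of all genes were called, against which the list counts are set. Beside Rgs2, 15 of 19 other RGS genes were tested, and 8 falls and 3 rises were called in 97 tests (11.3%). Of the falls 7 belonged to Rgs20, from -0.56 (PVN) to -1.01 (dCA1), in every region but AMY. Rgs16 fell in PVN (-0.94), where Rgs9 rose (1.05 ± 0.21, SE; edgeR adjusted p 0.000397) as Rgs2 did. Rgs12 rose in PFC and PVN, and its PVN adjusted p was 0.0811 with the replicate block. The block added falls of Rgs4 in PFC and Rgs14 in dCA1. Of the Gq receptors, G proteins and phospholipases that RGS2 acts beside, 1 of 78 tests was called (1.28%), Plcb4 in AMY (0.48). With the replicate block 3 were, among them a rise of Plcb4 in dCA1.

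Among the dual-specificity phosphatases other than Dusp14, 13 rises and 2 falls were called in 99 tests (15.2%). Dusp18 rose in 6 regions, most in PVN (1.39 ± 0.12, SE; edgeR adjusted p 6.3e-12), and Dusp1, a known glucocorticoid-induced phosphatase of MAP kinases, rose in 5, from 0.54 in CER to 0.80 in dDG. With the replicate block Dusp1 was not called in dCA1 (adjusted p 0.0568) and was in PVN (0.0384). In PFC, where Dusp14 fell, Dusp5 (0.89) and Dusp16 (0.79) rose. Dusp7 fell in CER and dCA1. In the TAK1 and JNK list, 2 of 56 tests were called (3.57%), both falls of Tab2, in dCA1 (-0.27) and PVN (-0.24). With the replicate block 4 were, adding falls of Tab2 in AMY and CER.

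The 5 calls in 91 tests of junctophilins and calcium channel partners (5.49%) were all rises of Itpr2, an endoplasmic reticulum calcium release channel, from 0.41 in PFC to 0.53 in CER, where Jph1 fell. With the replicate block the list had 9 calls, with added rises of Itpr2 in dCA1 and Kcnn2 in AMY and falls of Jph4 in CER and Itpr1 in vCA1. In the PI4-kinase list, 7 rises and 0 falls were called in 72 tests (9.72%). Of these, 5 were of Efr3b, a membrane anchor of the same complex as hyccin, which rose by 0.32 in AMY and CER, 0.38 in PVN, 0.46 in vDG and 0.60 in dCA1, and Efr3a rose in PFC (0.26). With the replicate block Efr3b was also called higher in dDG (0.33) and Pip5k1c lower in PFC (-0.25). In CER, Efr3b rose where Fam126a fell.

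In the acetate and acetyl-CoA list, 5 rises and 6 falls were called in 143 tests (7.69%). All 6 falls were of Slc16a1, a monocarboxylate transporter that carries lactate and acetate, from -0.39 in CER to -0.96 in vCA1. The fall in dCA1 had an adjusted p of 0.0517 with the replicate block. Slc16a1 is also abundant in brain endothelium, whose summed markers were lower after dexamethasone in every region (1 or 2 of 6 markers were higher in each), and their part in these falls was not tested. Acaca, which turns acetyl-CoA into malonyl-CoA, rose in CER (0.79), vDG (0.62) and AMY (0.51), and Pdk4 rose in vDG (1.10). The block added rises of Acaca in dCA1 and Pdk2 in PVN. Acss2, which makes acetyl-CoA from acetate outside mitochondria, was tested in all 8 regions and called in none.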

How the data were processed

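The deposited table holds raw counts per gene from the authors for 27998 genes in all libraries. Per the submitters' processing notes, the tools were FastQC 0.11.4, cutadapt, UMI-tools 0.5.4, STAR 2.6.0a, featureCounts 1.6.4, DESeq2 1.30.1 and R 4.0.5, and the build mm10. The authors also deposited log2 variance-stabilised values per region for 228 libraries, used here as an alternative. The 5 genes, the gene lists and the motifs were chosen with earlier results of these data known.

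Each region was fitted with edgeR 4.0.16 (R 4.3.3): filterByExpr by group, TMM scaling, quasi-likelihood test of dexamethasone against vehicle, Benjamini-Hochberg over the genes tested, threshold 0.05. The SE was taken as the size of the log2 fold change over the square root of F. Vehicle levels were compared in 1 fit with the animal as a block, and the interaction in 1 fit of all libraries without one. The fits were tested on simulated data. DESeq2 1.42.0 and limma 3.58.1 gave alternatives. Per the labels, same-numbered libraries of both arms shared a plate in 115 of 115 pairs, and 14 of 15 same-numbered animal pairs shared a date of punching. The correlation of their deviations ran from -0.154 to 0.526 (median 0.147) and was over 0.1 in 71 pairs. A fit with the replicate number as a block is therefore given beside the responses of the 5 genes and the list genes whose call it changes. Library totals set the precision of each value. Gene symbols came from GENCODE M21, whose spans match the 5 genes.

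Named beside the 5 genes are the 5 genes nearest outside the opposite-direction threshold and Smad3, the 3 genes most like each in response and within groups, and up to 4 called genes with the smallest adjusted p per family list. Some genes that fall under these choices are not reported here. Marker genes and overlapping genes are named too. Dusp7, Acss2 and the list genes called only with the replicate block fall outside the rule and were named after their values were seen. Leaving out libraries with cerebellar markers or of RIN under 4 was chosen after seeing the data.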

Additional observations from a re-analysis of the deposited data

Results flagged for a closer look

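For each of the 5 genes, the response to dexamethasone differed among the 8 regions by edgeR's test of the region-by-treatment interaction. The adjusted p over 11053 genes was 3.98e-05 for Rgs2, 0.000162 for Jph1, 0.000259 for Dusp14, 0.000443 for Acss1 and 0.00354 for Fam126a. With the animal as a block the values ran from 2.14e-05 to 0.00485. The genes had been chosen by the same contrasts, so these values are no independent evidence.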

How the results depend on the processing

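Of 561 values of the results under alternatives, 527 kept their direction and side of the threshold or, for counts, stayed within 1.5 times. The count of genes called in opposite directions was 6 and moved to 2 with at least 10 counts required in every library, which left 3519 genes tested in all 8 regions and 1 of the 5 genes among them. It moved to 16 with date and plate as factors, 10 with limma on the variance-stabilised values, 19 at an adjusted p of 0.1 and 3 at 0.01. At 0.01 Jph1, Rgs2 and Dusp14 were among the 3. Fam126a was not among the genes called in opposite directions when low counts were kept, when plate and date were factors or when RIN was a covariate, and Acss1 was not with limma. The count of genes passing the interaction fell from 129 to 26 with 10 counts in every library. Without a filter on low counts the TAK1 and JNK list had 0 calls, against 2. Fam126a in AMY, not called, went from 0.007 to -0.012 with limma. Dusp14 in AMY was called with DESeq2 (adjusted p 0.0495), with date and plate (0.0212) and with limma (0.0335). The cause of these changes was not tested. With TMM, upper-quartile and DESeq2 scaling, the median log2 fold change of all genes was within 0.021 of 0 in every region.

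With the replicate number as a block, the counts that moved by over 1.5 times were 19 genes called in opposite directions against 6, and calls of 9 against 5 in the junctophilin list, 3 against 1 in the Gq list and 4 against 2 in the TAK1 and JNK list. For the 5 genes, the block ended the calls of Jph1 and Rgs2 in vCA1, added calls of Jph1 in dCA1, Rgs2 in dDG and Dusp14 in AMY, and changed no other call.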
